A study of Mus musculus with 10 samples.

Results

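The regions described here are CpG islands that lie close to the centromeric end of the mouse autosomes. CpG islands are short sequences dense in CpG dinucleotides, and an array probes them with clusters of short oligonucleotides. A region is a cluster of at least 3 probes whose starts lie no more than 500 bp apart, and it was counted as near the chromosome start where its first probe begins below 12 Mb on chromosomes 1 to 19. This position rule gave 751 regions with 4567 probes, of 13835 regions in all. The other 12693 autosomal regions, with 78587 probes, served for comparison. The rule uses position alone, but the set was chosen with earlier results of these data known.

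The samples were left hemibrains of C57BL/6j males, an inbred mouse strain, without any transgene or deletion stated. Mice entered a diet at 3 weeks of age and were kept on it for 24 weeks. The enriched diet (ERD, 4 arrays) supplied n-3 and n-6 polyunsaturated fatty acids at 7:1, the balanced diet (BLD, 3 arrays) at 1:1, and the standard laboratory diet that served as control (STD, 3 arrays) at 1:6. All 3 diets were designed to be equal in calories. Each title carries its own identifier without saying that it stands for an animal, and a p-value therefore reflects the scatter among these samples, which may be technical.

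Mouse chromosomes carry their centromere at one end, and the assembly counts positions from that end after a placeholder gap. The centromere is embedded in satellite repeats that are packed as heterochromatin and carry dense cytosine methylation. CpG islands in the unique sequence next to it are, as elsewhere, mostly free of methylation where they cover active promoters, and a minority are methylated, among them islands of imprinted and germline genes. A hemibrain mixes neurons, glia and vessel cells, so a value is an average over all of them, and a change in cell make-up and a change within cells cannot be told apart.

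Methylation was measured by immunoprecipitation with an antibody to 5-methylcytosine, followed by hybridisation against input DNA on a 2-colour array. The value is the log2 ratio of immunoprecipitated (Cy5) over input (Cy3) signal, centred on the array median, so 0 is the middle of that array and not an absence of methylation. Probes were averaged to give a region's value on each array, and its level is the mean of the 3 diet means. Dyes were not swapped, so dye effects of single probes stay in every level. Probes well above background in both dyes made up 84.1% to 94.7% on the ERD arrays, 88.0% to 90.5% on the BLD arrays and 76.4% to 89.2% on the STD arrays, and the number of arrays limits the precision of every value. The interquartile range of log2 ratios over all probes, which scales every difference, was 0.61 to 0.79 on the ERD arrays, 0.38 to 0.74 on the BLD arrays and 0.38 to 0.53 on the STD arrays. Coordinates are on mm9, and no gene is named because the files pair no probe with a gene.

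The regions were unevenly spread over chromosomes. Chromosome 19 held 160 of the 751, or 21.3%, and these were 34.9% of all regions of that short chromosome. Chromosome 11 held 73, chromosome 16 held 57, chromosome 7 held 50 and chromosome 8 held 45, while chromosome 14 held 8, the first of them at 8623883. The region closest to a chromosome start was one of 5 probes on chromosome 2 from 3035415 to 3036236. In make-up the regions resembled the other autosomal regions. They had a median of 5 probes against 5, a median length of 637 bp against 645 bp, and a median distance to the nearest region of 29245 bp against 25403 bp. A median of 88.3% of their spots lay well above background, against 90% in the others, and the median SD between arrays of 1 diet was 0.16 in both sets.

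Islands near the centromeric end had a slightly lower median ratio than the other autosomal islands on most arrays. The median level was -0.061 for the regions near the start and -0.047 for the other autosomal regions. On single arrays the median near the start minus that of the others was -0.012, -0.022, 0.011 and -0.027 in ERD, -0.020, -0.014 and -0.017 in BLD, and -0.0098, -0.010 and -0.012 in STD. It was below 0 on 9 of 10 arrays, with ERD replicate 3 as the exception, and averaged -0.013 ± 0.010 (SD, n = 10). No test was made of this difference, and with normexp, another background correction, it was -0.0027. Normexp started from the raw spot signals, without the deposited subtraction and dye scaling. It subtracted local background, fitted a model of signal and noise over each array and dye, and added an offset of 50. The offset by itself draws log ratios toward 0, most at dim spots. Single regions had a level with an SD of 0.24 near the start and of 0.24 elsewhere. By diet, the median near the start was -0.068 ± 0.012 in ERD (SD, n = 4), -0.041 ± 0.037 in BLD (SD, n = 3) and -0.053 ± 0.012 in STD (SD, n = 3), and the ranges of the diets overlapped.

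**Figure D1:**
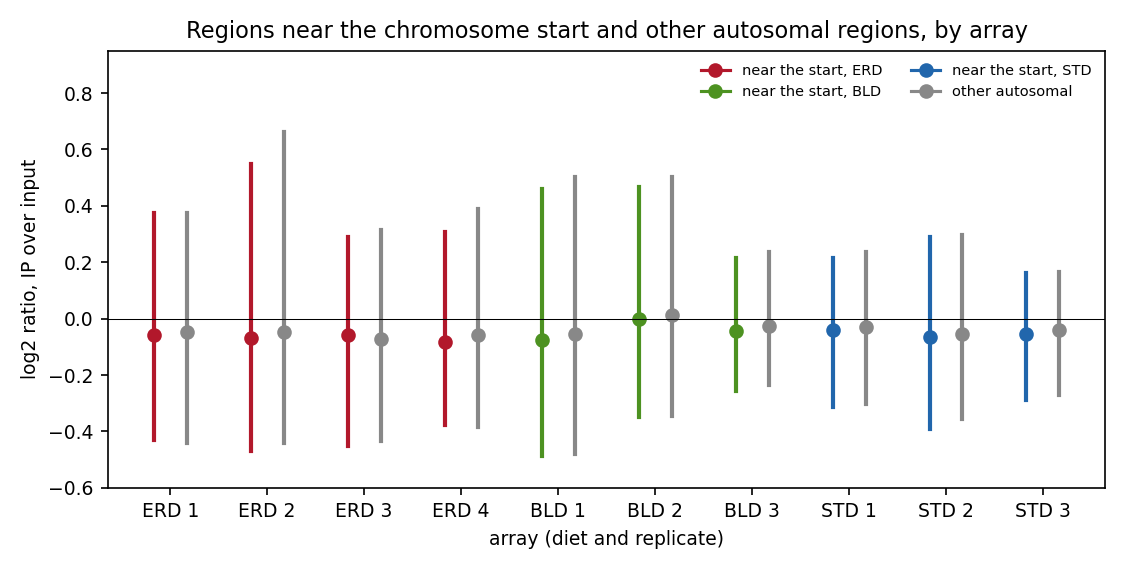
Log2 ratio of immunoprecipitated over input DNA (vertical axis) on each of the 10 arrays, for the 751 regions near the chromosome start (coloured by diet) and the 12693 other autosomal regions (grey). Points are medians and bars leave out the highest 10% and the lowest 10% of regions. The paired points lie close together on every array, with differences between -0.027 and 0.011.

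The small difference lay in the outer portion of the window. The 491 regions from 3 to 8 Mb had a median level of -0.052, and their median minus that of all other autosomal regions averaged -0.0011 over arrays, with values below 0 on 6 of 10. The 260 regions from 8 to 12 Mb had a median level of -0.083 and an average difference of -0.036, below 0 on 9 of 10 arrays. In the next stretch, from 12 to 20 Mb, 511 regions had an average difference of -0.00076, with 5 arrays on each side. By diet, the difference of the 8 to 12 Mb regions was -0.033 ± 0.028 in ERD (SD, n = 4), -0.051 ± 0.031 in BLD (SD, n = 3) and -0.025 ± 0.0032 in STD (SD, n = 3). Regions with high ratios were also distributed unevenly. Of the regions from 3 to 8 Mb, 28 (5.70%) had a level above 0.5, against 3 (1.15%) of those from 8 to 12 Mb. In bins of 1 Mb the median level ran from -0.105 at 9 to 10 Mb to -0.032 at 4 to 5 Mb, and the first bin, at 3 to 4 Mb, stood at -0.081. Over the bins between 20 and 40 Mb the medians ran between -0.105 and -0.0058, a range that held every bin below 12 Mb.

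**Figure D2:**
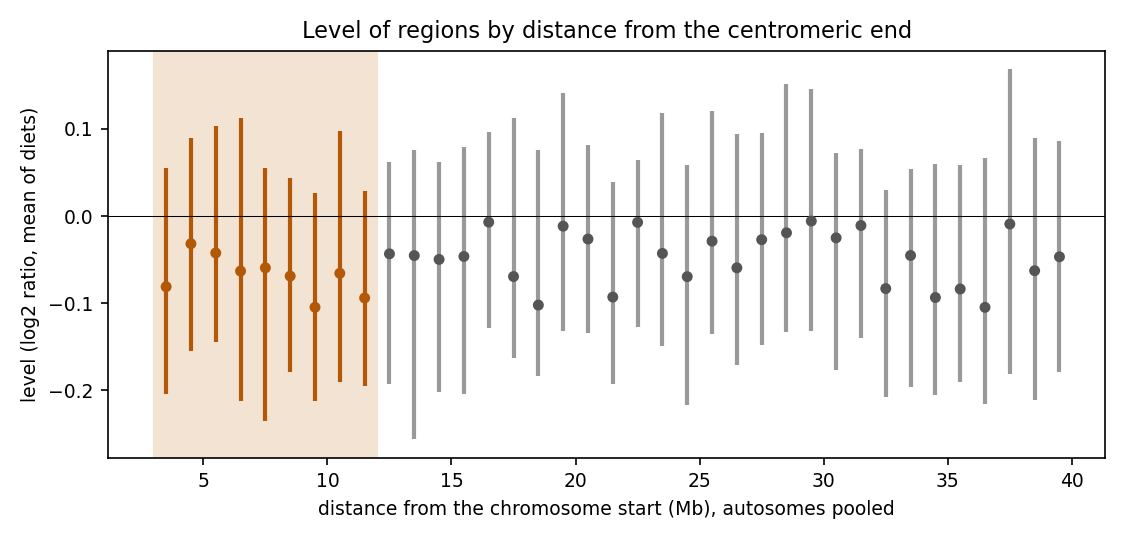
Level (log2 ratio, mean of the 3 diet means) against distance from the chromosome start in Mb, with the 19 autosomes pooled in bins of 1 Mb up to 40 Mb. Points are medians and bars the middle 50% of regions, with the bins below 12 Mb shaded and in brown; these bins have medians between -0.105 and -0.032.

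The 70 regions from 11 to 12 Mb had a median level of -0.094 and lay below the other autosomal median on all 10 arrays. The 62 regions from 12 to 13 Mb had -0.043 and lay below it on 6. Further out, the bins at 13 to 14 Mb and at 15 to 16 Mb again lay below it on all 10 arrays. Those at 14 to 15 Mb and at 16 to 17 Mb did so on 5 and on 1. The single regions nearest to the limit were these. Just inside it, the 14-probe region of chromosome 18 starting at 11997722 had a level of -0.11, the 5-probe region of chromosome 14 starting at 11994123 had -0.084, and the 3-probe region of chromosome 19 starting at 11986561 had -0.13. Just outside, the 3-probe region of chromosome 4 starting at 12014862 had a level of -0.30, the 4-probe region of chromosome 19 starting at 12039889 had -0.29, and the 6-probe region of chromosome 15 starting at 12047158 had -0.015.

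Regions of few probes had the highest ratios, near the start and elsewhere. Near the start, the 393 regions of 3 to 5 probes had a median level of -0.025, the 299 of 6 to 10 probes had -0.074 and the 59 of over 10 probes had -0.147. In the other autosomal regions the same classes had medians of 0.0023, -0.086 and -0.084, so there the largest regions were not below those of 6 to 10 probes. The largest region near the start, 27 probes on chromosome 8 from 11555042 to 11558710, had -0.07, -0.25, -0.23 and -0.22 in ERD, -0.15, -0.08 and -0.10 in BLD, and -0.09, -0.07 and -0.03 in STD. It was below the array median on all 10 arrays, and so were 32.2% of the regions of over 10 probes near the start, against 26.9% of those elsewhere. The 23-probe region of chromosome 18 from 9212093 to 9214977 had -0.43, -0.28, -0.30 and -0.25 in ERD, 0.02, -0.09 and -0.08 in BLD, and -0.13, -0.02 and -0.12 in STD, and the ERD arrays lay below all others. The 21-probe region of chromosome 11 from 3188684 to 3191171 had values between -0.19 and 0.10 with the diets overlapping. Across all sizes, 136 of the 751 regions (18.1%) were under the array median throughout all arrays, against 16.1% of the others, and 49 (6.52%) were over it throughout, against 8.27%.

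Chromosomes differed from each other in how the start compared with their own remainder. The median near the start was lower than in the rest of the same chromosome on 12 chromosomes and higher on 7, and differences between chromosomes accounted for 7.99% of the variance of level among the 751 regions. Chromosome 7 stood highest. Its 50 regions had a median level of 0.072, against -0.0021 in its other 952 regions, a difference of 0.074 that was above 0 on all 10 arrays. By diet their median was 0.082 ± 0.064 in ERD (SD, n = 4), 0.122 ± 0.074 in BLD (SD, n = 3) and 0.088 ± 0.086 in STD (SD, n = 3). Under 14 alternative ways of processing the difference stayed positive, between 0.030 and 0.135.

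Chromosome 5 stood lowest. Its 24 regions had a median level of -0.203, against -0.042 in its other 900 regions, a difference of -0.161 that was below 0 on all 10 arrays and under all 14 alternatives, between -0.180 and -0.033. The median was -0.220 ± 0.061 in ERD (SD, n = 4), -0.198 ± 0.052 in BLD (SD, n = 3) and -0.118 ± 0.049 in STD (SD, n = 3). Chromosome 4, with 33 regions and a difference of -0.025, was the other chromosome below its remainder on all 10 arrays. On chromosome 19 the 160 regions were above the remainder by 0.033, on 9 of 10 arrays and under all 14 alternatives. Chromosomes 7 and 5 are described because their values were seen to be the extremes, so these values are a description with no test. Each chromosome has few regions: 4 of the 19 have fewer than 20.

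**Figure D3:**
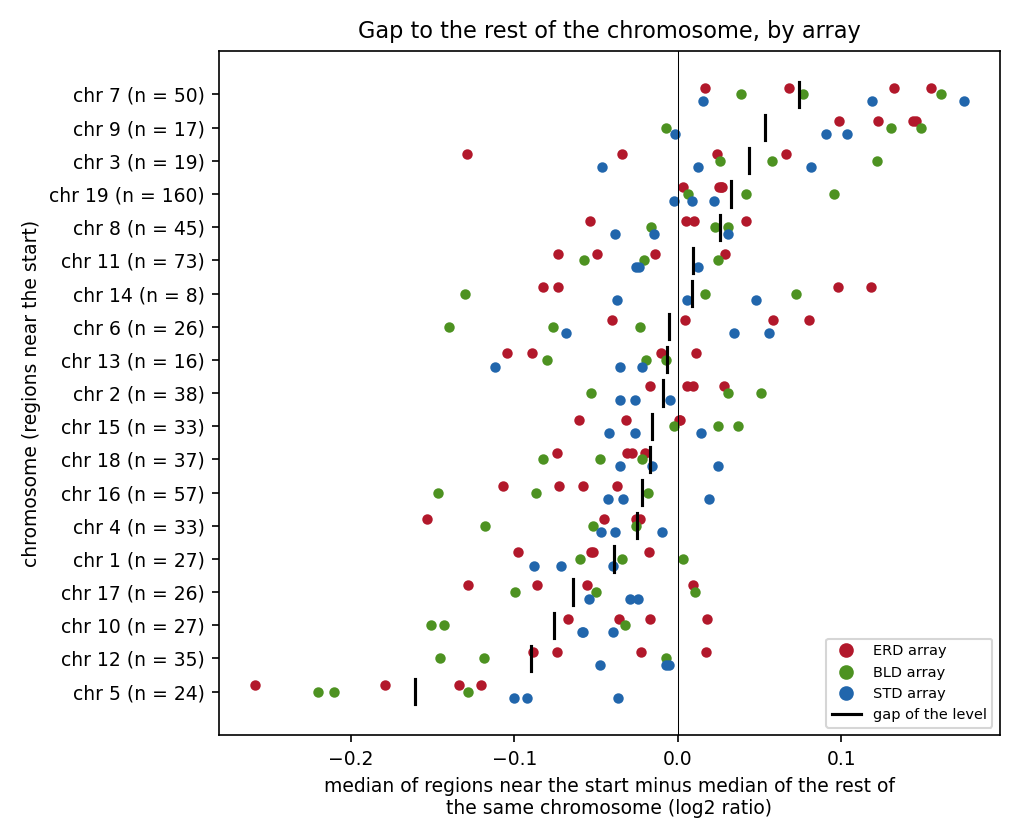
Median log2 ratio of the regions near the start minus the median of the rest of the same chromosome (horizontal axis), for each array (points coloured by diet) and for the level (black ticks), with chromosomes ordered by the ticks. On chromosome 7 all 10 arrays lie right of 0 and on chromosome 5 all 10 lie left of it.

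Within chromosome 7 the high values came in short stretches. The 10 regions from 6 to 7 Mb had a median level of 0.227, the fourth highest of the 449 windows of 1 Mb with at least 10 regions. Their median was 0.236 ± 0.093 in ERD (SD, n = 4), 0.389 ± 0.174 in BLD (SD, n = 3) and 0.105 ± 0.102 in STD (SD, n = 3). The 23 regions from 4 to 5 Mb had a median level of 0.143 and array medians of 0.111 ± 0.067 in ERD (SD, n = 4), 0.126 ± 0.087 in BLD (SD, n = 3) and 0.107 ± 0.096 in STD (SD, n = 3). Both windows lay above the median of the other autosomal regions on all 10 arrays and above the autosomal median under all 14 alternatives. On chromosome 8 the 13 regions from 3 to 4 Mb also did so, with a median level of 0.084. The lowest of the 18 windows near the start was that of chromosome 11 from 6 to 7 Mb, where 12 regions had a median level of -0.194. These windows were singled out after their values were seen.

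One stretch of chromosome 7, 38074 bp long from 4945057 to 4983130, held 6 regions, of which 4 had a level above 0.5. The 9-probe region starting at 4945057 had 0.63, 1.33, 0.62 and 1.11 in ERD, 0.86, 0.60 and 0.39 in BLD, and 0.42, 0.92 and 0.13 in STD. The 10-probe region starting at 4981772 had 0.57, 1.41, 0.67 and 1.16 in ERD, 0.94, 0.82 and 0.36 in BLD, and 0.38, 0.88 and 0.03 in STD. Both were high and low on the same arrays, with ERD replicate 2 at the top and STD replicate 3 at the bottom. Between them lay regions of 8 and 5 probes with levels of 0.59 and 0.53, and also an 8-probe region starting at 4966239 with a level of -0.048 and values between -0.13 and 0.18, and a 3-probe region starting at 4971760 with a level of 0.143. High and middling islands lay a few kilobases apart. Over the whole window neighbouring regions were hardly alike. For the 108 pairs of neighbours under 10 kb apart near the start, the Pearson correlation of level was 0.030, against 0.205 for 2254 such pairs elsewhere. By ranks (Spearman) the 2 sets were less far apart, at 0.084 against 0.186. At 10 to 100 kb the Pearson correlation was 0.073 against 0.031, and over 100 kb it was 0.041 against 0.043. Low values at these distances were therefore found elsewhere too. This is a description across regions, which share the same arrays and are not independent.

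The 31 regions near the start with a level above 0.5 were 4.13% of the 751, against 4.71% of the other autosomal regions. They lay on 10 chromosomes, with 10 on chromosome 19 between 5306691 and 7144779, 9 on chromosome 7 and 4 on chromosome 8, and 24 of them exceeded the array median throughout. The highest was a 3-probe region of chromosome 18 from 4052532 to 4052890, with 0.94, 1.94, 1.29 and 1.21 in ERD, 1.23, 1.41 and 0.59 in BLD, and 0.62, 0.92 and 0.66 in STD. All ERD arrays lay above all STD arrays, while BLD overlapped both. Second came the 3-probe region of chromosome 8 from 3451969 to 3452316, with 0.80, 1.40, 0.98 and 1.48 in ERD, 1.12, 1.13 and 0.65 in BLD, and 0.63, 1.80 and 0.23 in STD. Here the 3 STD arrays spanned the values of both other diets. Further along chromosome 8, a 6-probe region from 3495864 to 3496469 had a level of 0.80 and a 4-probe region from 9207733 to 9208030 had 0.87. The other 2 of the 6 highest were the 3-probe region of chromosome 7 from 6141163 to 6141631, with a level of 0.75, and the 5-probe region of chromosome 2 from 11211664 to 11212289, with 0.70.

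Among the 31 high regions the arrays of 1 diet differed as much as the diets. The median over the 31 was 0.50, 1.33, 0.53 and 0.96 on the ERD arrays, 0.87, 0.79 and 0.42 on the BLD arrays, and 0.38, 0.81 and 0.12 on the STD arrays. ERD replicate 2 was the highest ERD array in 28 of the 31, STD replicate 2 the highest STD array in 30, and BLD replicate 3 the lowest BLD array in 28. The mean of ERD was above that of STD in 30 of the 31, in 27 without ERD replicate 2 and in 25 without STD replicate 3. The median of the diet means was 0.79 in ERD, 0.68 in BLD and 0.38 in STD. The level that chose these regions holds all 3 diets, so these counts are a description. With normexp none of the 31 kept a level above 0.5, though 30 stayed above 0 with a median of 0.19.

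The 6 lowest regions near the start had levels between -0.59 and -0.51. The lowest was a 3-probe region of chromosome 11 from 5161168 to 5161397, with -0.52, -0.92, -0.52 and -0.53 in ERD, -0.80, -0.48 and -0.48 in BLD, and -0.39, -0.64 and -0.68 in STD. The 11-probe region of chromosome 16 from 11253448 to 11254780 had -0.59, -0.72, -0.42 and -0.62 in ERD, -0.94, -0.91 and -0.46 in BLD, and -0.37, -0.50 and -0.33 in STD. The diets overlapped in both. On chromosome 13, a 4-probe region from 6647782 to 6648177 had a level of -0.55, and on chromosome 12, one of 4 probes from 4082491 to 4082967 had -0.55. The remaining 2 lay on chromosome 19 and recur in the diet comparisons below.

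The diet comparison asked whether the n-3 to n-6 ratio goes with methylation at single islands. No region near the start passed an adjusted p of 0.05 in any pairwise comparison or in the trend, with limma fitted on all 13835 regions and Benjamini-Hochberg adjustment over all of them. Over all regions 0 passed in each of the 3 pairwise comparisons and 6 (0.0434%) in the trend, none of them near the start. All counts below are therefore at an unadjusted p under 0.05. The arrays of every diet serve in more than 1 comparison, so the comparisons are not independent.

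Between ERD and STD, 123 regions near the start (16.4%) were past the unadjusted limit, against 15.7% of all regions. Of these, 68 were higher in ERD (9.05%, against 7.68% of all regions) and 55 were lower (7.32%, against 8.02%). The smallest adjusted p was 0.137 (limma) and the median difference was 0.0012, against 0.0033 over all regions. Without STD replicate 3 the share near the start was 8.66%, and with normexp it was 8.12%. The ERD arrays all lay above the STD arrays in 58 regions near the start (7.24% of all regions did so) and all below them in 66 (9.01% of all regions). ERD arrays lay on slides of their own, so slide and diet cannot be told apart there. With the slide as a random block the share was 14.9%.

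The lowest p belonged to a 6-probe region of chromosome 5 from 3596035 to 3596756. It had -0.58, -0.73, -0.84 and -0.61 in ERD, -0.63, -0.55 and -0.33 in BLD, and -0.15, -0.05 and -0.14 in STD. All ERD arrays, and all BLD arrays, lay below all STD arrays. The ERD mean was lower than the STD mean by a difference of -0.58 ± 0.10 (SE), with an adjusted p of 0.137 (limma). With normexp this difference shrank to -0.076. The second was a 7-probe region of chromosome 11 from 5420720 to 5421838, which had -0.47, -0.28, -0.29 and -0.38 in ERD, -0.02, 0.02 and -0.11 in BLD, and 0.07, 0.16 and 0.04 in STD. Its 3 diets did not overlap, with ERD lowest, BLD between and STD highest. The difference was -0.45 ± 0.09 (SE), with an adjusted p of 0.156 (limma), and it was -0.162 with normexp.

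Chromosome 19 gave 2 more of the 6 lower regions. The 4-probe region from 10763284 to 10763769, also among the lowest in level, had -0.93, -0.54, -0.84 and -1.01 in ERD, -0.41, -0.55 and -0.27 in BLD, and -0.36, -0.29 and -0.40 in STD. ERD lay below STD throughout, and BLD overlapped both. The 7-probe region from 8831167 to 8831954 had -0.30, -0.24, -0.53 and -0.22 in ERD, -0.48, -0.20 and -0.04 in BLD, and 0.02, 0.14 and 0.52 in STD, so STD stood alone above 0. The last 2 lay on chromosome 8, with 3 probes from 3515198 to 3515585 and a difference of -0.39, and with 7 probes from 4238382 to 4239290 and a difference of -0.39. Both of these turned to higher in ERD with normexp.

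Of the 6 regions higher in ERD, 4 lay on chromosome 19. The 6-probe region from 5741603 to 5742324 had 0.30, 0.31, 0.23 and 0.43 in ERD, 0.22, 0.30 and 0.01 in BLD, and -0.17, -0.07 and -0.03 in STD. The 5-probe region from 4169320 to 4170234 had 0.55, 0.38, 0.57 and 0.48 in ERD, 0.01, 0.28 and 0.08 in BLD, and 0.02, 0.27 and -0.12 in STD. In the first, BLD and ERD overlapped and STD stood below both, whereas in the second BLD and STD overlapped and ERD stood above both. Their differences were 0.40 ± 0.10 and 0.44 ± 0.11 (SE), both with an adjusted p of 0.181 (limma). The other 2 on chromosome 19 were 4-probe regions from 8810214 to 8810516 and from 5349185 to 5349504, with differences of 0.35 and 0.33, of which the first turned to lower in ERD with normexp. A 4-probe region of chromosome 15 from 3532965 to 3533580 had 0.25, 0.30, 0.24 and 0.20 in ERD, 0.11, 0.11 and 0.14 in BLD, and 0.07, -0.67 and -0.41 in STD. ERD and BLD were tight and STD ranged widely, with 66.7% of its STD spots well above background, and the direction turned with normexp. The 3-probe region of chromosome 12 from 3571998 to 3572274 had 0.73, -0.01, 0.25 and 0.44 in ERD, -0.15, -0.41 and -0.20 in BLD, and -0.10, -0.20 and -0.53 in STD. Its ERD arrays lay above all others. BLD lay between the ERD and STD means in 11 of these 12 regions, the exception being the chromosome 19 region starting at 8810214. The 12 were chosen for a low p between ERD and STD, which by itself favours a BLD mean in between. A graded response to the diets cannot be read from this count.

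**Figure D4:**
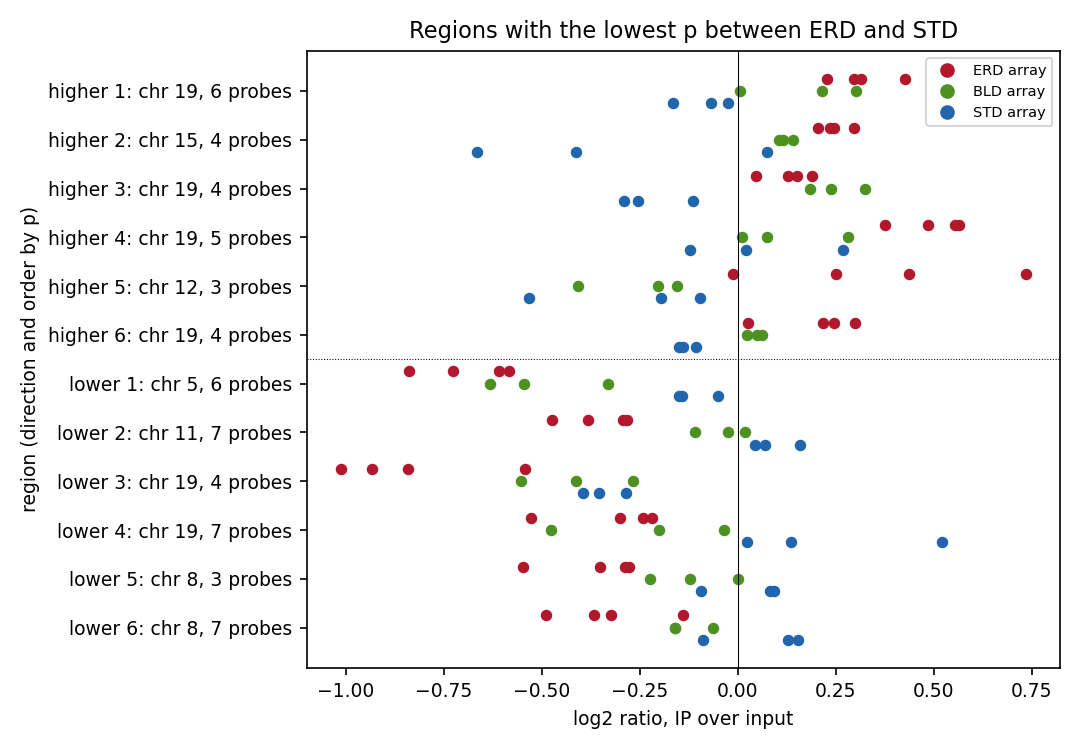
Log2 ratio of immunoprecipitated over input DNA (horizontal axis) on every array for the 12 regions near the chromosome start with the lowest p between ERD and STD, 6 higher above the dotted line and 6 lower below it. No ERD point overlaps the STD points of its region, no region passed the adjusted limit, and with normexp the direction turned in 4 of the 12 (higher 2 and 3, lower 5 and 6).

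By chromosome, the counts past the unadjusted limit between ERD and STD varied on those with the most regions, where 7.68% of all regions were higher and 8.02% lower. On chromosome 19, 19 regions were higher in ERD and 9 lower, of 160. On chromosome 11, 3 were higher and 4 lower, of 73. On chromosome 16, 3 were higher and 11 lower, of 57. On chromosome 7, 7 were higher and 2 lower, of 50, and on chromosome 8, 5 were higher and 5 lower, of 45. Apart from diet, 17 of the 57 regions near the start of chromosome 16 stayed below the array median on all 10 arrays. Of all 751 regions near the start, 18.1% did so. On chromosome 16, 0 regions exceeded the array median throughout, against 6.52% of the 751. The same was true of chromosomes 1, 4, 5, 13, 14 and 17. The counts were not tested between chromosomes.

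Between BLD and STD, 97 regions near the start (12.9%) were past the unadjusted limit, against 11.2% of all regions. Of these, 62 were higher in BLD (8.26%, against 7.31%) and 35 lower (4.66%, against 3.89%). The smallest adjusted p was 0.440 (limma). Leaving out BLD replicate 1 gave a share of 5.46%, leaving out BLD replicate 2 gave 6.92%, leaving out STD replicate 1 gave 8.39%, and normexp gave 4.13%. The BLD arrays all lay above the STD arrays in 76 regions (11.1% of all regions) and all below them in 52 (6.27% of all regions). The median difference of 0.029, against 0.030 over all regions, turned negative with normexp, quantile normalization, the median of probes and the filter on probes well above background.

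The lowest p was that of a 3-probe region of chromosome 19 from 7315635 to 7315974. It had -0.33, -0.35, -0.40 and -0.26 in ERD, 0.34, 0.47 and 0.25 in BLD, and -0.19, -0.15 and -0.53 in STD. BLD stood alone above 0, and ERD and STD overlapped. BLD was higher than STD by 0.65 ± 0.12 (SE, adjusted p = 0.440, limma), and this region also had the lowest p between ERD and BLD, at -0.69 ± 0.11 (SE, adjusted p = 0.422, limma). In STD, 33.3% of its spots were well above background, and with normexp the difference between BLD and STD was -0.23. The region of chromosome 19 starting at 8810214 had 0.24, 0.33 and 0.18 in BLD, and -0.12, -0.29 and -0.26 in STD, and it too turned with normexp. The largest difference among the 12 named was that of a 3-probe region of chromosome 4 from 8849186 to 8849567, with 1.20, 0.87 and 0.52 in BLD, and -0.13, 0.07 and -0.13 in STD. Its difference was 0.93 ± 0.21 (SE), the BLD arrays were far apart, and it became -0.14 with normexp.

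The other 3 higher regions were on chromosome 19 from 6241292 to 6241869, with a difference of 0.52, on chromosome 3 from 8664630 to 8665126, with 0.45, and on chromosome 19 from 4855210 to 4855567, with 0.46. Both regions of chromosome 19 turned with normexp. Among the 6 lower regions, the 7-probe region of chromosome 18 from 6240800 to 6241664 had -0.62, -0.72 and -0.40 in BLD, and -0.13, 0.05 and 0.09 in STD. The 3-probe region of chromosome 1 from 9689896 to 9690240 had -0.74, -0.71 and -0.38 in BLD, and 0.38, -0.23 and -0.11 in STD, and turned to 0.36 with normexp. In both, BLD lay below STD without overlap. The others were on chromosome 14 from 8835214 to 8835562 with a difference of -0.46 (turned with normexp), on chromosome 5 starting at 3596035 with -0.39, on chromosome 6 from 11875780 to 11876497 with -0.49, and on chromosome 13 from 8869984 to 8870821 with -0.36. BLD replicate 3 and STD replicate 1 shared a slide, and between these 2 arrays the median difference of the 751 regions was 0.020. No other slide held both BLD and STD arrays. With slide held fixed, the contrast of the diets therefore rests on these 2 arrays alone. Such a fit cannot tell an effect of slide from a loss of precision, so no conclusion is drawn from its share.

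Between ERD and BLD, 85 regions near the start (11.3%) were past the unadjusted limit, against 10.2% of all regions. Of these, 32 were higher in ERD (4.26%, against 3.48%) and 53 lower (7.06%, against 6.71%). The smallest adjusted p was 0.422 (limma). Leaving out BLD replicate 1 gave a share of 6.13%, leaving out BLD replicate 2 gave 6.92%, and normexp gave 0.399%. The ERD arrays all lay above the BLD arrays in 32 regions (3.32% of all regions) and all below them in 50 (6.79% of all regions). The median difference was -0.026, against -0.026 over all regions, and it turned positive with normexp, loess, quantile normalization, the median of probes and the filter on probes well above background.

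After the chromosome 19 region starting at 7315635, the lowest p among regions lower in ERD was that of a 4-probe region of chromosome 19 from 5001639 to 5002103. It had -0.39, -0.43, -0.32 and -0.57 in ERD, 0.10, 0.38 and 0.05 in BLD, and -0.29, 0.02 and -0.26 in STD. The ERD arrays lay below all BLD and STD arrays, and 33.3% of its STD spots were well above background. The 9-probe region of chromosome 19 from 4096751 to 4097586, the second of the lowest in level on that chromosome, had -0.78, -0.64, -0.82 and -0.74 in ERD, -0.19, -0.46 and -0.35 in BLD, and -0.70, -0.43 and -0.27 in STD. ERD was below BLD here, while STD overlapped both. A 3-probe region of chromosome 5 from 8893508 to 8894121 had a difference of -0.70 and turned with normexp. The regions starting at 5420720 on chromosome 11 and at 10763284 on chromosome 19 completed the 6, with differences of -0.32 and -0.42.

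Of the regions higher in ERD than in BLD, the lowest p belonged to a 3-probe cluster of chromosome 19 from 10630157 to 10630589. It had 0.49, 0.14, 0.35 and 0.22 in ERD, -0.71, -0.19 and -0.15 in BLD, and 0.25, -0.16 and -0.15 in STD. ERD lay above BLD, and STD overlapped both. Next were the regions already named on chromosome 1 starting at 9689896, with a difference of 0.61, and on chromosome 6 starting at 11875780, with 0.50. On chromosome 6 the lowest ERD value of -0.08 lay just below the highest BLD value of -0.07. The regions of chromosome 12 starting at 3571998 and of chromosome 19 starting at 4169320 had differences of 0.61 and 0.37, and a 3-probe region of chromosome 15 from 11329112 to 11329499 had 0.37. In 4 of these 12 regions the BLD mean fell in between those of ERD and STD. Choosing them by ERD against BLD makes such a position less likely.

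**Figure D5:**
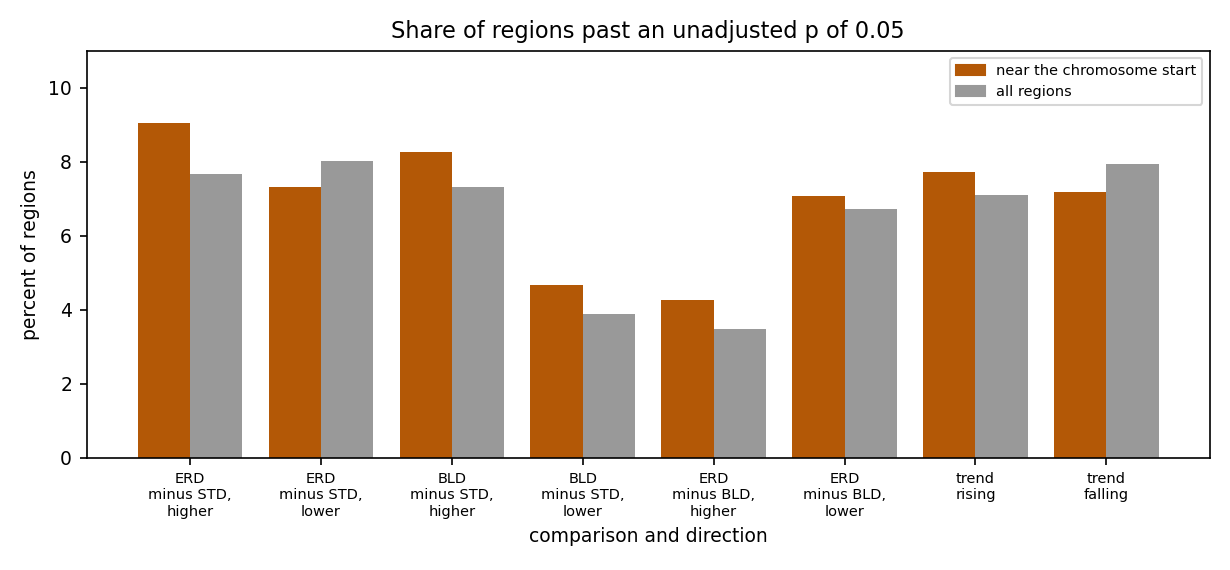
Percent of regions with an unadjusted p under 0.05 (limma), by comparison and direction, for the 751 regions near the chromosome start (brown) and all 13835 regions (grey). The shares lie close to each other in every comparison, for example 9.05% against 7.68% for regions higher in ERD than in STD.

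In the trend, the slope is the change in log2 ratio per doubling of the n-3 to n-6 ratio. Here 112 regions near the start (14.9%) were past the unadjusted limit, against 15% of all regions. Of these, 58 had a positive slope (7.72%, against 7.09%) and 54 a negative slope (7.19%, against 7.94%). The smallest adjusted p was 0.115 (limma), shared by the regions of chromosome 5 starting at 3596035 (slope -0.10 ± 0.02, SE) and of chromosome 11 starting at 5420720 (slope -0.09 ± 0.02, SE). With array weights both passed, at an adjusted p of 0.0470, and over the other alternatives in which they could be fitted they did not. The other 2 regions named with a negative slope were those starting at 10763284 on chromosome 19 and at 3515198 on chromosome 8. Those named with a positive slope were the regions starting at 5741603 and 4169320 on chromosome 19 and at 3532965 on chromosome 15, together with a 4-probe region of chromosome 15 from 8586089 to 8586434, which had 0.75, 1.13, 0.33 and 0.46 in ERD, 0.19, 0.46 and 0.08 in BLD, and 0.11, 0.15 and -0.18 in STD. Its ERD arrays lay above all STD arrays, and the slope was 0.12 ± 0.03 (SE, adjusted p = 0.168, limma). With normexp the slopes of the regions starting at 3515198 and 3532965 turned, and without STD replicate 3 the share near the start was 7.32%.

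The direction of the difference between ERD and STD followed the level of a region. Ranked by the BLD arrays alone, which do not enter the difference, the highest 10% of the regions near the start (75 regions) held 23 that were higher in ERD than in STD and 0 that were lower, with a median difference of 0.34. The lowest 10% (75 regions) held 1 that was higher and 16 that were lower, with a median difference of -0.174. Over all 13835 regions the highest 10% (1384 regions) held 386 higher and 0 lower with a median of 0.36, and the lowest 10% held 7 higher and 330 lower with a median of -0.159. The mean within-array spread of the ratios differed between diets too. The interquartile range over the regions near the start was 0.387 ± 0.043 in ERD (SD, n = 4), 0.360 ± 0.136 in BLD (SD, n = 3) and 0.260 ± 0.041 in STD (SD, n = 3). It did not follow diet on every array: BLD replicate 3 had 0.206, below the STD arrays at 0.256, 0.303 and 0.220. The part of this spread in the differences was not tested. With all arrays scaled to one spread, all 12 regions named between ERD and STD kept their direction. These were chosen for a low p and a direction that held without each array. The ranking by BLD was not repeated at one spread, so this does not bear on the part of the spread.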

How the data were processed

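DNA methylation was measured by immunoprecipitation and 2-colour arrays in 10 hemibrain samples. Spot intensity was extracted by the authors with Agilent Feature Extraction, whose version is 10.7.3.1 per the file headers and 9.0 per the submitters' processing notes. Per the file headers, that software had subtracted background from, and scaled between dyes, the intensity values deposited as processed. The deposited log10 ratio of Cy5 over Cy3, also held by the series value table, was used as an alternative. Other deposited columns (flags and positions) are codes. Per the labels, Cy5 carried immunoprecipitated and Cy3 input DNA on every array.

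The log2 ratio of the deposited processed intensities was computed per probe here. Spots marked as outliers were dropped, saturated spots kept, and every array was centred on its median over non-control probes, without further normalization. The 326 probes with no chromosome position in the files were left out. The diet comparisons used limma (version 3.58.1, R 4.3.3, lmFit and eBayes) on all 10 arrays without covariates, with Benjamini-Hochberg adjustment over 13835 regions and a threshold of 0.05. The trend used log2 of n-3 over n-6 as a number.

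Named are, per comparison, the 6 regions near the start with the lowest p in each direction (4 for the trend) among those whose direction held without each array in turn, the 6 highest and 6 lowest in level, the 3 of most probes, the 3 nearest the chromosome start, and the 3 on each side of 12 Mb. Regions on chromosome 7 from 4 to 5 Mb were named after their values were seen. The set of regions and the lists were chosen with earlier results of these data known.

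Alternatives were normexp (offset 50), loess, quantile normalization, scaling to one spread, the series value table, autosomal centring, filters on spots and probes, other region definitions and limits, slide and array position as terms, array weights, a probe-length correction, the arrays of each pair of diets alone, and leaving out each array or chromosome. Fits were tested on simulated data with known changes added in ERD and noise drawn independently for each array. At the adjusted limit between ERD and STD, 44 of 100 regions changed by 0.5 were recovered, and 90 of 100 changed by 1. Differences of 0.5 or less at single regions can therefore be missed. Gene names and sequences were not used here.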

Additional observations from a re-analysis of the deposited data

Results flagged for a closer look

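Named regions and summaries over the regions near the start were checked within ERD, the diet with 4 arrays, for an array that stands apart, defined as a gap to its nearest neighbour above 0.829 of the range. Of 52 measures checked, 2 had such an array, and chance alone marks about 1 in 20 groups. In the 3-probe region of chromosome 11 starting at 5161168, the lowest in level near the chromosome start, ERD replicate 2 stood at -0.92, while the other ERD arrays lay between -0.53 and -0.52. In the 5-probe region of chromosome 2 starting at 3035415, the closest to a chromosome start, ERD replicate 3 stood at 0.029, while the other ERD arrays lay between -0.057 and -0.043.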

How the results depend on the processing

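No paired analysis was possible because the labels give the diets no shared replicate numbers. No region near the start passed the adjusted threshold in any alternative for the 3 pairwise comparisons; in the trend, 1 did with probes well above background only (chromosome 19 from 6984035 to 6984523, slope -0.12, adjusted p 0.0332, limma) and 2 with array weights. The difference in level from the other autosomal regions was -0.013, between -0.016 and -0.012 without each array, between -0.021 (without chromosome 19) and -0.0085 (without chromosome 5) without each chromosome, -0.0027 with normexp, and -0.00036 for regions starting below 8 Mb.

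With normexp the share past an unadjusted p of 0.05 and the median difference were 8.12% and 0.051 for ERD minus STD, 4.13% and -0.012 for BLD minus STD, 0.399% and 0.059 for ERD minus BLD, and 7.72% and 0.010 for the trend. ERD minus BLD had a median of 0.0078 with loess, 0.0014 with quantile normalization, 0.024 with probes well above background only and 0.0023 with the median of probes, and a share of 7.32% with arrays scaled to one spread, where the trend's median was 0.0045. BLD minus STD had a median of -0.0026 with quantile normalization, -0.065 with probes well above background only, -0.0037 with the median of probes and 0.0038 with the probe-length correction, and a share of 1.997% with the slide as a fixed block. ERD minus STD had a median of -0.028 with probes well above background only. The cause of these changes was not tested. With the slide as a fixed block, BLD minus STD rests only on the BLD and STD arrays that shared a slide. Its share cannot tell an effect of slide from a loss of precision, so no conclusion is drawn from it.

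Without each array in turn the share ran from 8.66% (without STD replicate 3) to 15.7% for ERD minus STD, from 5.46% (without BLD replicate 1) to 19.3% (without BLD replicate 3) for BLD minus STD, from 6.13% (without BLD replicate 1) to 13.6% for ERD minus BLD, and from 7.32% (without STD replicate 3) to 16.6% for the trend. BLD minus STD was also 6.92% without BLD replicate 2 and 8.39% without STD replicate 1, and ERD minus BLD was 6.92% without BLD replicate 2. The median ran from -0.015 to 0.014, from 0.0066 to 0.040, from -0.041 to -0.0039 and from -0.0026 to 0.00083 in the same order, so it has no settled direction between ERD and STD or in the trend.

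With normexp the direction of 14 values of named regions turned, and no other alternative turned any. Leaving out an array could not turn one, because these regions were chosen among those whose direction held without each array. For ERD minus STD the values became -0.082 (chromosome 15, 3532965), -0.156 (chromosome 19, 8810214), 0.039 (chromosome 8, 3515198) and 0.132 (chromosome 8, 4238382). For BLD minus STD they became 0.032 (chromosome 14, 8835214), -0.064 (chromosome 19, 4855210), -0.091 (chromosome 19, 6241292), -0.227 (chromosome 19, 7315635), -0.220 (chromosome 19, 8810214), 0.360 (chromosome 1, 9689896) and -0.139 (chromosome 4, 8849186). For ERD minus BLD it became 0.022 (chromosome 5, 8893508), and for the trend -0.012 (chromosome 15, 3532965) and 0.0059 (chromosome 8, 3515198). In 2 of the 12 regions named between BLD and STD, under 50% of spots of a diet were well above background. The same held for 2 of the 12 between ERD and BLD. The dim diet was STD in the chromosome 19 region starting at 7315635, which is in both lists. It was ERD in the chromosome 4 region starting at 8849186, named between BLD and STD. In the chromosome 19 region starting at 5001639, named between ERD and BLD, it was STD. Dim spots therefore bear directly only on BLD minus STD at the region starting at 7315635.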
